A study of Mus musculus with 9 samples.

Results

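The genes described here are 10 of the 32285 genes in the deposited matrices, chosen by name: Gapdh and Gapdhs, Pgk1 and Pgk2, Ldha, Ldhb and Ldhc, Pdha1 and Pdha2, and Hk1. They encode 4 enzyme steps of glycolysis and pyruvate use for which the mouse has both a somatic form and a testis form, together with the first enzyme of glycolysis. Their UMIs (unique molecular identifiers, 1 for each captured RNA molecule) were summed per mouse and cell type in single-cell RNA-seq of whole testis from 9 male C57BL/6 mice (lines backcrossed to C57BL/6 J) at postnatal day 24 (PND24). There were 4 Control mice, 2 mice of the NELF-B cKO group and 3 of the TDP-43 cKO group, with 1 library per mouse. The cKO mice carried 1 floxed and 1 null allele of Nelfb or of Tardbp and the Stra8-iCre transgene, a Cre driven by a germ cell promoter that acts from spermatogonia (SG) onward, so that somatic cells kept the floxed allele beside the null one. The study calls the controls wild type and says that they were littermates or non-littermates of the cKO mice. The floxed alleles and transgene of each control mouse were not given in the sources used here, and the deposited data of Control replicate 2 carry the tag het, with no gene named, so that the genotype of this mouse is in doubt. NELF-B is a subunit of the complex that holds RNA polymerase II in its promoter-proximal pause, and TDP-43, encoded by Tardbp, is a DNA- and RNA-binding protein.

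Germ cells change their glycolytic enzymes as they differentiate. SG use the enzymes found in most tissues. In the spermatocytes (SC) the X chromosome is silenced, and with it Pgk1 and Pdha1, whose functions pass to the autosomal genes Pgk2 and Pdha2. In the round spermatids (RS) and the sperm that follow, glycolysis runs with testis forms such as GAPDHS, PGK2 and LDHC, part of which is anchored to the sperm tail. Sertoli cells, the somatic cells that nurse the germ cells, turn glucose into lactate and supply it to SC and RS. Of the enzymes here, hexokinase (Hk1) traps glucose in the cell. Glyceraldehyde-3-phosphate dehydrogenase (Gapdh, Gapdhs) and phosphoglycerate kinase (Pgk1, Pgk2) carry out successive lower steps, and the second of these yields ATP. Lactate dehydrogenase (Ldha, Ldhb, Ldhc) interconverts pyruvate and lactate. The E1 alpha subunit of pyruvate dehydrogenase (Pdha1, Pdha2) commits pyruvate to the mitochondrion.

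In the GRCm38 annotation used for positions, Pgk1 lay at chrX:106187100-106203699 and Pdha1 at chrX:160122209-160138413, each with 11 exons. Their testis counterparts Pgk2, at chr17:40207015-40208640, and Pdha2, at chr3:141210004-141212355, had 1 exon each, as copies made from a spliced RNA do. Ldha, at chr7:46841475-46855627, and Ldhc, at chr7:46861203-46878142, stood next to each other on the same strand. Gapdhs, at chr7:30729775-30743681, had 11 exons, and Gapdh lay at chr6:125161715-125166467. Ldhb lay at chr6:142490249-142507957 and Hk1 at chr10:62268855-62379908. All 10 listed genes had a start site in the RefSeq promoter table (GRCm38.p6), and the promoters of the 4 testis isoforms are printed because the report turns on these 4 forms. Each line runs 5′ to 3′ on the gene's strand, from 250 bases before to 50 bases after the start of transcription in that table, and capitals mark the letters TGACG, the core of the motif bound by the CREB and CREM family.
Pgk2, chr17:40208560-40208859, minus strand: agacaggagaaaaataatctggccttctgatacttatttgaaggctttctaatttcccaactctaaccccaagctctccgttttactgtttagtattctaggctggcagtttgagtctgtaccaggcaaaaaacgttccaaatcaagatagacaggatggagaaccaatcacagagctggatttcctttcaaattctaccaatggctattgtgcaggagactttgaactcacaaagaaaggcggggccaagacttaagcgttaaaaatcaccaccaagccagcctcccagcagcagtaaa
Ldhc, chr7:46861013-46861312, plus strand: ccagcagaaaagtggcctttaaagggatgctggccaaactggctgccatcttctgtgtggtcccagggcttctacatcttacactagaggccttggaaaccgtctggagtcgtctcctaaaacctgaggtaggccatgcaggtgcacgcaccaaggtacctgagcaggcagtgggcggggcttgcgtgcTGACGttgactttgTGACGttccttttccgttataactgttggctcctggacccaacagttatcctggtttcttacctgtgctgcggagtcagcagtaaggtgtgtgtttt
Gapdhs, chr7:30743632-30743931, minus strand: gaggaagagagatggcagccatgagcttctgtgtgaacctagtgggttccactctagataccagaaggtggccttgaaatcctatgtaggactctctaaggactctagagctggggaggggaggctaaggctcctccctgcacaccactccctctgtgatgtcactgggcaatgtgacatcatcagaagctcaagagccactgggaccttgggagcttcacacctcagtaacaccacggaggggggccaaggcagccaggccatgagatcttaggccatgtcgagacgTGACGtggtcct
Pdha2, chr3:141212306-141212605, minus strand: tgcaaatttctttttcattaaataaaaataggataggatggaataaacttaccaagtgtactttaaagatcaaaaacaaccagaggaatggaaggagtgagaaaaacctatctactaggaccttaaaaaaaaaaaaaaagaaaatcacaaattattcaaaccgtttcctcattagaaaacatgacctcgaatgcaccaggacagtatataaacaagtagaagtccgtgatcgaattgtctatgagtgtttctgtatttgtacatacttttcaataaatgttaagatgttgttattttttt
These letters, a part of the CRE palindrome and searched on both strands, were found in 20.8% of 32851 promoters of this length. Ldhc held it 61 and 47 bases before its start, and Gapdhs held it 38 bases after its start. The Pgk2 and Pdha2 windows did not hold it, and among the other 6 genes Pdha1 held it 1 time. Ldha held the full palindrome TGACGTCA, which holds TGACG on both strands and was present in 1.79% of promoters. The letters AACTG, the core of the motif of the meiotic factor MYBL1, stood 3 times in the Ldhc window and 1 time each in those of Pgk2, Gapdh and Hk1, against 44.8% of all promoters with at least 1 match. Pdha2 held TATAAA 44 bases before its start, which 13.6% of promoters held somewhere. Among the other 6 promoters, that of Ldha held 30 CpG, Pgk1 24, Pdha1 21, Ldhb 17, Gapdh 12 and Hk1 1. Those of Pgk2, Gapdhs and Pdha2 held 4 CpG each and that of Ldhc 9, beside a median of 7 over all promoters.

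The libraries held between 119203347 and 159407373 UMIs per mouse, and 45132 barcodes passed the filter of more than 1000 genes and under 10% mitochondrial UMIs. Any pair of libraries shared at most 24 barcodes. Clusters were named from marker genes that excluded the 10 listed genes and their pathway, which left 29374 named cells, and the deposited files used here held no annotation by the authors. In cKO mice, germ cells that held a UMI of Nelfb or Tardbp, respectively, were set aside. This step took out 235 cells in NELF-B cKO and 3168 in TDP-43 cKO. In SG, a Nelfb UMI was seen in 70.1% to 75.2% of the cells of the control mice, and before removal in 2.48% and 9.32% of the cells of the 2 NELF-B cKO mice. A Tardbp UMI was seen in 67.1% to 74.8% of control SG and in 53.3% to 64.3% of SG of the TDP-43 cKO mice. In early SC the share was 70.8% to 78.1% in control and 42.65% to 49.8% in TDP-43 cKO mice. Whether the 3′ reads of Tardbp lie outside the deleted exon was not checked, so that these shares need not report the deletion. Levels below are CPM, the UMIs of a gene scaled to the total UMIs of the summed cells, and a UMI stands for 1 molecule whatever the length of the transcript, so that levels can be set side by side between genes. Gapdh, Pgk1 and Ldha have processed pseudogenes with near-identical sequence, and their counts are uncertain to the extent that reads were split. Differences between mice were tested with edgeR's quasi-likelihood test on the summed counts, and a gene was called at a Benjamini-Hochberg adjusted p under 0.01, over all genes tested, where the log2 ratio was also 1 or more, or -1 or less. Barcodes with 1 to 100 UMIs served as a measure of the free RNA in each suspension. In control mice an estimated 14.9% to 23.8% of the UMIs of SG came from it.

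In control mice the 4 testis isoforms were raised at 3 stages, Pdha2 in zygotene (Z) SC, Ldhc and Pgk2 in pachytene (P) SC and Gapdhs in RS. Ldha was raised in P SC too, while Gapdh, Pdha1 and Pgk1 fell. Between SG and the early SC (preleptotene, leptotene and zygotene summed; pL, L and Z), 5 of the 10 listed genes were called, beside 29.3% of the 21947 genes tested. From early SC to P SC 8 were called, beside 44.5% of the genes tested. From P SC to RS 3 were called, beside 52.6%. With each control mouse left out in turn, 10629 to 11171 genes in all were called at this step. Without Control replicate 2, 6 of the listed genes were called, with Ldhb (1.26 on the log2 scale), Pdha1 (1.50) and Pgk1 (1.32) added. DESeq2 called the same 6 at this step, beside 51.3% of the genes tested. The share of genes called at these steps was large, so that the listed genes are described by their levels and not by their count.

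**Figure D1:**
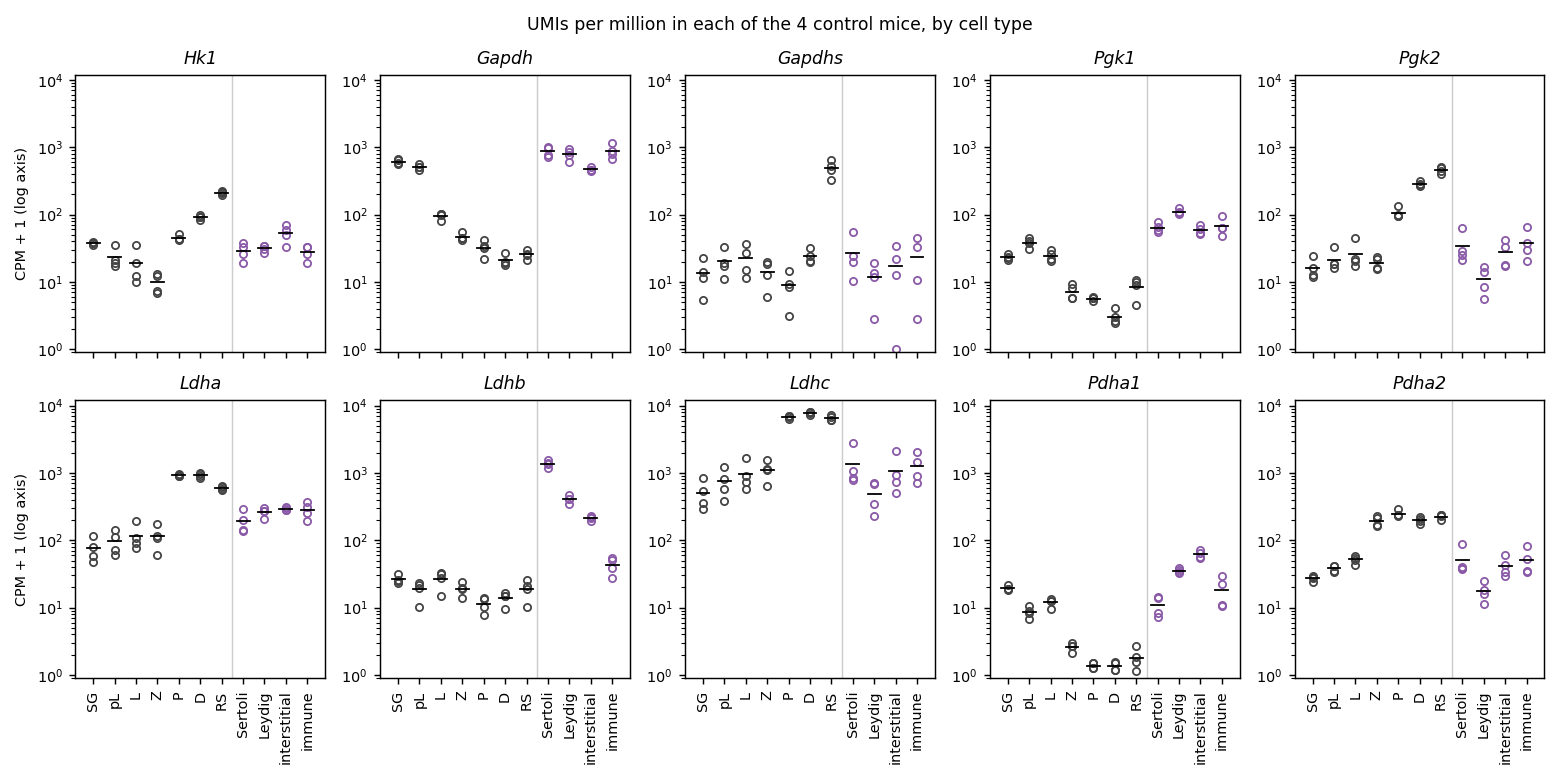
Levels of the 10 listed genes in the 4 control mice, as CPM + 1 on a log axis. Each open circle is 1 mouse and each bar the mean, with germ cells in dark grey to the left of the line and somatic cells in purple to its right; Pdha2 stands at 162 to 227 CPM in Z and at 232 to 287 CPM in P, while Gapdhs stays at or under 35.3 CPM in germ cells until it reaches 322 to 637 CPM in RS.

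Gapdh, the somatic dehydrogenase, was at 587, 552, 636 and 657 CPM in the SG of control mice 1 to 4. It was at 463 to 559 CPM in pL, 78.8 to 101 CPM in L, 41.5 to 54.6 CPM in Z and 20.9 to 40.7 CPM in P SC. The ranges of SG and pL overlapped, those from pL to P SC did not, and those of P SC, diplotene (D) SC (16.6 to 25.9 CPM) and RS (20.3 to 29.1 CPM) did. The log2 fold change was -1.69 ± 0.15 (SE; adjusted p = 2.05e-12, edgeR) from SG to early SC and -2.21 ± 0.15 (adjusted p = 5.58e-16, edgeR) from early SC to P SC. Gapdhs, the spermatid form, was at 457, 322, 637 and 526 CPM in the RS of control mice 1 to 4. In P SC the same mice had 13.6, 2.15, 8.45 and 7.31 CPM. No value in P SC came near those in RS, and the log2 fold change was 6.39 ± 0.31 (adjusted p = 7.24e-21, edgeR), the largest of the 10 at any step. In D SC the level was 18.8 to 30.6 CPM, above every value in P SC. The larger part of the rise in CPM fell between the D SC and the RS. An estimated 10.1% to 16.0% of the UMIs of control D SC came from free RNA, which held Gapdhs at 56.4 to 191 CPM. Its part in the D SC level was not tested, so that a rise by D SC is not shown.

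Pgk1, the X-linked kinase, was low in the germ line from the start. It stood at 19.8 to 24.8 CPM in SG and was higher in pL, at 29.4 to 43.1 CPM. It was then at 19.6 to 28.6 CPM in L, 4.67 to 8.35 CPM in Z, 4.12 to 5.00 CPM in P SC and 1.43 to 3.02 CPM in D SC. The fall from early SC to P SC was called, at -1.59 ± 0.18 on the log2 scale (adjusted p = 5.75e-10, edgeR). In RS the level was 9.53, 3.48, 8.79 and 7.99 CPM, 0.86 ± 0.20 above P SC on the log2 scale, which passed the p limit (adjusted p = 0.000191, edgeR) and missed the fold limit. Pgk2, its single-exon counterpart, was at 94.2, 133, 97.6 and 94.4 CPM in P SC, at 269 to 309 CPM in D SC and at 401, 444, 497 and 511 CPM in RS. These 3 ranges did not overlap one another or those of the earlier stages, the highest of which was 43.9 CPM in L. The 2 called steps were 2.84 ± 0.23 (adjusted p = 8.1e-14, edgeR) from early SC to P SC and 2.32 ± 0.22 (adjusted p = 2.13e-12, edgeR) from P SC to RS, both on the log2 scale.

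Ldhc, the testis lactate dehydrogenase, was the most abundant of the 10 listed genes in P SC, D SC and RS. It was at 6682, 7012, 6354 and 6914 CPM in P SC, 7174 to 8119 CPM in D SC and 6024 to 7180 CPM in RS, and these ranges overlapped in part. In Z it was at 1561, 646, 1089 and 1124 CPM. The log2 fold change from early SC to P SC was 3.33 ± 0.28 (adjusted p = 2.48e-13, edgeR). Ldha, the muscle-type form, took the same course at a lower level. Ldha was at 941, 891, 885 and 955 CPM in P SC and at 829 to 1009 CPM in D SC, and then lower, at 557 to 642 CPM, in RS, outside the range of either. Its log2 fold change was 3.56 ± 0.18 (adjusted p = 2.82e-19, edgeR) from early SC to P SC. From P SC to RS it was -0.42 ± 0.17 (adjusted p = 0.0224, edgeR), short of both limits. Ldhb, the heart-type form, was at no stage above 31.9 CPM in the germ cells of control mice. It was at 22.1 to 30.7 CPM in SG and 6.69 to 12.7 CPM in P SC. None of its 3 steps was called by edgeR with the settings used throughout. The step from P SC to RS, higher in RS, was at the fold limit, and was called by DESeq2 (1.61 on the log2 scale) and by edgeR with no low-count filter (1.125), no mouse block (1.01), free RNA subtracted (6.15) or without Control replicate 1, 2 or 3 (1.12 to 1.26). In Control replicates 1 and 3 the free RNA estimate took 19.2% and 12.6% of the P SC UMIs, and the free RNA held Ldhb at 83.5 and 119 CPM. No Ldhb could then remain in P SC of these mice, and the size of the 6.15 follows in part from that.

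Pdha1, the X-linked subunit, was at 17.5, 18.2, 17.8 and 20.9 CPM in SG, 1.13 to 2.02 CPM in Z and 0.248 to 0.510 CPM in P SC. It fell at both steps, by 1.77 ± 0.25 (adjusted p = 1.75e-07, edgeR) and by 3.43 ± 0.31 (adjusted p = 1.48e-12, edgeR) on the log2 scale. In RS it was at 0.139 to 1.65 CPM. Pdha2 was at 22.6 to 28.2 CPM in SG and 33.0 to 40.8 CPM in pL. In L it was at 42.6 to 57.2 CPM, and in Z at 227, 169, 162 and 212 CPM. Its ranges in L and Z did not overlap, whereas those of Pgk2, Ldhc and Gapdhs did. Its log2 fold change was 2.17 ± 0.17 (adjusted p = 1.9e-13, edgeR) from SG to early SC and 1.50 ± 0.16 (adjusted p = 1.18e-10, edgeR) from early SC to P SC. Over Z, P SC (232 to 287 CPM), D SC (172 to 219.8 CPM) and RS (198 to 240.1 CPM) the ranges overlapped, apart from Z and D SC against P SC.

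Hk1, the hexokinase of most tissues, fell and rose again. It was at 37.1, 34.7, 36.3 and 38.3 CPM in SG, 5.94 to 11.9 CPM in Z and 41.2, 49.9, 42.5 and 41.6 CPM in P SC. It went on to 83.3 to 96.5 CPM in D SC and 196, 209.8, 226 and 211 CPM in RS, with no overlap between P SC, D SC and RS. Its log2 fold changes were -1.33 ± 0.20 (adjusted p = 3.22e-07, edgeR), 2.02 ± 0.19 (adjusted p = 6.32e-12, edgeR) and 2.44 ± 0.18 (adjusted p = 4.26e-15, edgeR) at the 3 steps. Spermatogenic transcripts of Hk1 with their own first exon exist, and 3′ counts cannot separate them from the somatic transcript.

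The RS held 2 clusters, 1 of median depth 2706 UMIs per cell and 1 of 29337 UMIs, which was led by Prm1, Prm2, Tnp2 and Tnp1, genes of the proteins that replace histones late in spermatid life. In control mice Gapdhs was at 100.2 to 230.3 CPM in the first and 338 to 699 CPM in the second. Pgk2 was at 67.5 to 127 CPM in the first and 472 to 550.4 CPM in the second. Hk1 ran the other way, at 274 to 338 CPM in the first and 164 to 218 CPM in the second. The clusters differ in depth as well as in leading genes, and the part of depth in these differences was not tested.

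The share of an enzyme's UMIs that came from the testis isoform put the steps on 1 scale. In the SG of control mice the share was 31.6% to 52.1% for Pgk2 of both Pgk genes, 80.7% to 85.8% for Ldhc of the 3 Ldh genes, 55.5% to 61.6% for Pdha2 and 0.8001% to 3.53% for Gapdhs. These shares include free RNA, which is described further on. In Z the share of Pdha2 was 98.8% to 99.5% and that of Pgk2 71.3% to 76.4%. In P SC Pdha2 made up 99.8% to 99.9%, Pgk2 95.0% to 96.6%, Ldhc 87.5% to 88.7% and Gapdhs 9.36% to 25.0%. In D SC the share of Gapdhs was 42.1% to 62.8%. With free RNA subtracted, only 2 control mice had enough UMIs for this share, at 1.96% and 100%. In RS Gapdhs reached 93.2% to 96.3% and Pgk2 97.7% to 99.2%. Ldhc made up 91.0% to 92.0% in RS, where Ldha was still at 557 to 642 CPM.

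**Figure D2:**
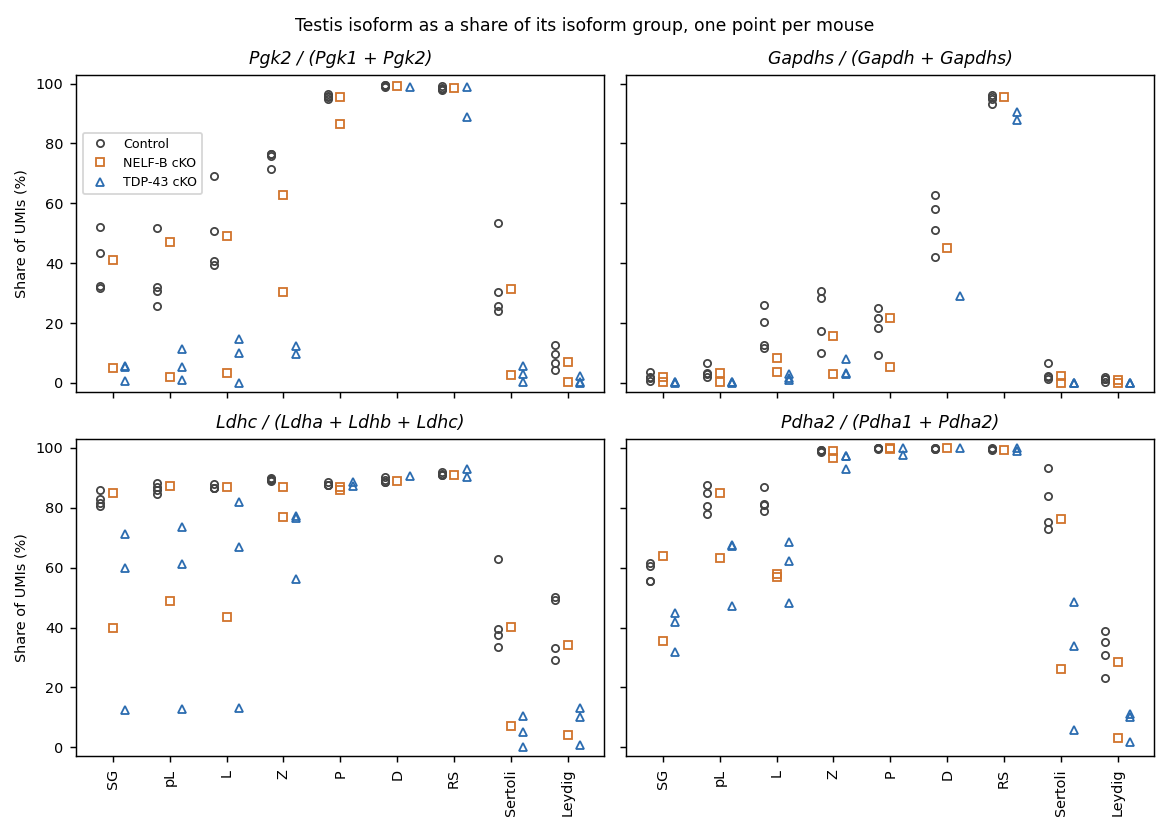
Share of UMIs, in percent, that came from the testis isoform of each enzyme, by cell type. Each point is 1 mouse (circles Control, squares NELF-B cKO, triangles TDP-43 cKO); in control P SC Pdha2 is at 99.8% to 99.9% and Gapdhs at 9.36% to 25.0%, and Gapdhs reaches 93.2% to 96.3% in control RS.

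Somatic cells held the enzymes in other proportions. Ldhb was the mark of the Sertoli cells, at 1351, 1194, 1397 and 1534 CPM in control mice 1 to 4, followed by Leydig cells (the androgen-producing cells between the tubules) at 345 to 468 CPM and interstitial cells at 195 to 230 CPM, and these 3 ranges did not overlap. Against SG its log2 fold change in Sertoli cells was 5.78 ± 0.18 (adjusted p = 7.62e-26, edgeR). Pgk1 was at 100.3 to 126 CPM in Leydig cells, overlapping the 93.0 to 118 CPM of myoid cells in the 2 mice with at least 20 of them. It stood at 54.4 to 75.8 CPM in Sertoli cells, where its log2 fold change against SG was 1.55 ± 0.18 (adjusted p = 2.12e-09, edgeR). The Pgk1 ranges of Sertoli cells, interstitial cells (50.1 to 69.1 CPM) and the cluster led by antigen-presentation genes (47.8 to 93.4 CPM) overlapped. Pdha1 was at 53.1 to 71.4 CPM in interstitial cells, overlapping myoid cells (56.8 to 76.6 CPM, 2 mice), then at 31.4 to 37.9 CPM in Leydig cells and at 6.15 to 13.5 CPM in Sertoli cells. The Sertoli range lay under that of SG, at -0.84 ± 0.27 on the log2 scale, which missed the fold limit (adjusted p = 0.00848, edgeR). It was called without Control replicate 3 (-1.05) or 4 (-1.07). Gapdh was at 703 to 1006 CPM in Sertoli cells, 612 to 948 CPM in Leydig cells and 675 to 1167 CPM in the cluster led by antigen-presentation genes, all overlapping. Against SG its log2 fold change in Sertoli cells was 0.52 ± 0.14 (adjusted p = 0.00192, edgeR), under the fold limit.

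Sertoli cells differed from SG in 6 of the 10 listed genes, all higher, beside 36.4% of the genes tested, and from P SC in all 10, beside 51.3%. Against P SC every alternative with the fold limit called 8 or 9 of the 10, with Hk1, Gapdhs or both lost. The 6 were Ldhb, Pgk1, Ldha, Ldhc, Pgk2 and Gapdhs. The Sertoli cells too held a cluster of low depth (median 2116 UMIs), and with the deeper cluster alone, a choice made after seeing the data, 2 remained, Ldhb and Pgk1, beside 35.6% of the genes tested. With the estimated free RNA subtracted, 6 were called higher, Ldha, Ldhb, Ldhc, Pdha2, Pgk1 and Pgk2, beside 37.9% of the genes tested. The subtraction left no Ldha, Ldhc or Pgk2 in control SG, so that these genes could only be called higher. Pdha2 in control SG was at 13.2% to 15.2% of its free level, beside an estimate of 14.9% to 23.8%. Little or none of it could remain, and the direction of its call was nearly fixed too. The free share was also estimated from different genes in Sertoli cells and in SG. Without Control replicate 1, Gapdhs (0.81) and Pgk2 (0.84) were not called, nor were they without Control replicate 4 (0.98 and 0.97 on the log2 scale). Gapdhs was not called without Control replicate 3 either (1.06). Against P SC, Sertoli cells had more Ldhb (6.71 ± 0.18 on the log2 scale, adjusted p = 1.08e-27, edgeR), Gapdh (4.42 ± 0.16, adjusted p = 2.76e-24, edgeR), Pdha1 (4.36 ± 0.34, adjusted p = 1.63e-14, edgeR) and Pgk1 (3.38 ± 0.19, adjusted p = 1.38e-18, edgeR), and less Ldhc, Pdha2, Ldha, Pgk2 and Hk1. Gapdhs was the fifth gene called higher in Sertoli cells than in P SC, at 53.3, 9.46, 23.4 and 18.6 CPM in the 4 mice. It was no longer called when any 1 control mouse was left out.

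The testis isoforms were found at some level in every cell type of the control mice, somatic cells included. Ldhc stood at 2780, 796, 1049 and 851 CPM in Sertoli cells and at 842, 286, 529 and 359 CPM in SG. The free RNA of the same suspensions held Ldhc at 5566 to 8380 CPM, near its level in P SC. Spermatid genes that somatic cells lack served as a scale. In Sertoli cells Acrv1, of the acrosome, was at 15.0% to 25.8% of its level in the free RNA and Tsga8 at 8.23% to 20.5%, with Ldhc at 12.9% to 33.2%, Pgk2 at 10.1% to 29.5% and Gapdhs at 10.1% to 28.0%. In SG Acrv1 was at 9.86% to 13.4% and Tsga8 at 3.75% to 7.62%, with Ldhc at 5.14% to 10.05%, Pgk2 and Gapdhs at 4.81% to 11.3%. In SG the shares of these 3 testis isoforms lay within the range of the 2 spermatid genes, and their levels there are not read as expression. In Sertoli cells their ranges overlapped those of the spermatid genes and reached above them, with the highest values in Control replicate 1. After subtraction Sertoli cells held Ldhc at 1160, 0, 238 and 160 CPM in control mice 1 to 4, Pgk2 at 0 to 19.7 CPM and Gapdhs at 0 to 13.1 CPM, beside Acrv1 at 1.11 to 4.10 CPM. In Z, Acrv1 was at 11.04% to 14.1% of its free level and Tsga8 at 4.86% to 9.27%. Pdha2 in Z, at 90.1% to 114.5%, stood outside both ranges, and Ldhc in Z, at 11.6% to 18.6%, overlapped that of Acrv1 and lay above that of Tsga8. The spermatid genes Tssk3 and Spaca1 were at 6.36% to 11.9% and 17.3% to 31.4% in Z. The Ldhc range lay within the span of the 4 spermatid genes only through Spaca1, which was at 7.12% to 8.96% in SG. The part of free RNA in the Ldhc level of Z was not tested. With the estimated free RNA subtracted, Ldhc, Pgk2, Gapdhs and Ldha were at 0 in the SG and early SC of all 4 control mice, and Pdha2 in Z was at 153 to 228 CPM. The estimate took 14.9% to 23.8% of the UMIs of control SG, above the Acrv1 and Tsga8 ranges there. It was above the Ldhc, Pgk2 and Gapdhs ranges too, so that their 0 follows from its size and does not show absence. The called rise of Ldhc from SG to early SC, at 1.01 ± 0.26 on the log2 scale (adjusted p = 0.00109, edgeR), was not called after this subtraction, where its value was -0.07 and 31.1% of all genes were called. It was not called without Control replicate 3 (1.05) or 4 (0.84) either. After subtraction Hk1 in Z was at 0 in all 4 control mice too, and Gapdh in SG was at 611 to 735 CPM.

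TDP-43 cKO replicate 1 had 4 P SC, 3 D SC and 3 RS among its named cells before removal, and its free RNA held Ldhc at 131 CPM. In this mouse Ldhc was at 6.91 CPM in SG, 3.19 CPM in Sertoli cells and 72.1 CPM in Z. Pgk2 was at 0.119 CPM in its SG and 2.25 CPM in its Z cells. Pdha2, with 13.7 CPM in the free RNA, was at 13.3 CPM in its SG, 1.08 CPM in its Sertoli cells and 122 CPM in its Z cells, of which 24 were left. The Pdha2 level in Z of a mouse with few later germ cells was below the lowest control value of 162 CPM, while its Ldhc levels in SG, Z and Sertoli cells were each below the lowest control values of 286, 646 and 796 CPM. After subtraction Ldhc in Z was at 68.8 CPM in this mouse and at 426 CPM in NELF-B cKO replicate 2, against 0 in all 4 controls. The estimate took 17.65% to 24.37% of the UMIs of control Z, and 5.335% and 10.09% in these cKO mice. The control level of 0 does not show absence.

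**Figure D3:**
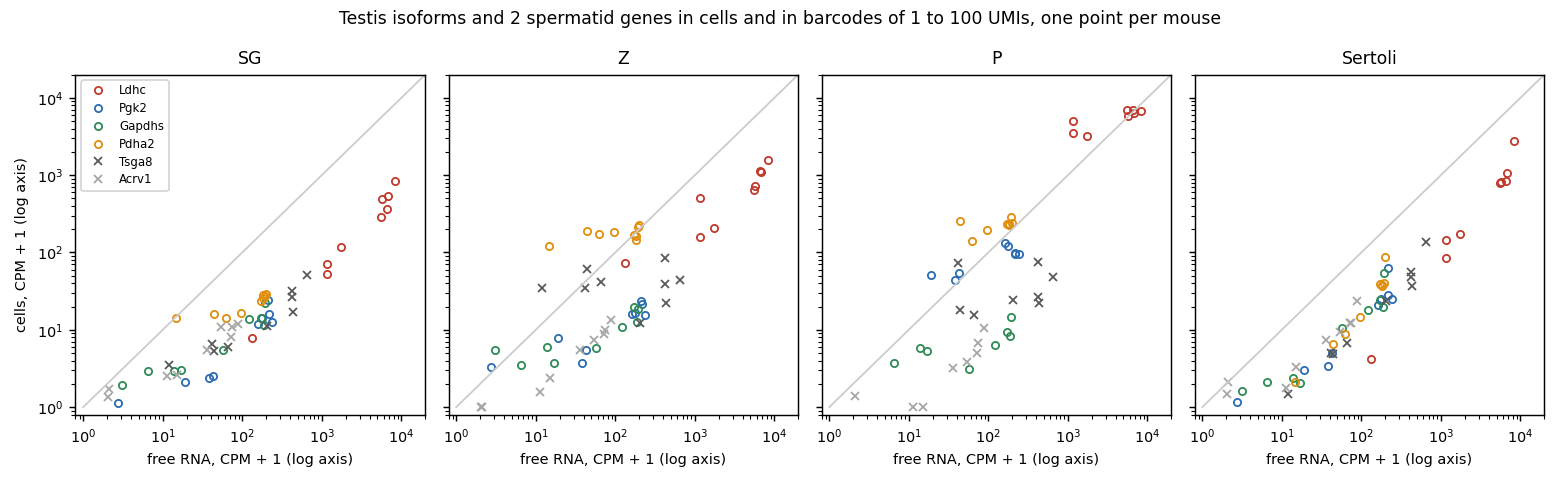
Level in cells against level in barcodes of 1 to 100 UMIs of the same mouse, both as CPM + 1 on log axes, in SG, Z, P and Sertoli cells. Each point is 1 mouse, open circles are the 4 testis isoforms, crosses are the spermatid genes Tsga8 and Acrv1, and the grey line marks equal levels; Ldhc lies below the line in SG, Z and Sertoli cells, while Pdha2 in Z is at 122 to 227 CPM.

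Pgk1 and Pdha1 are set beside the share of all UMIs that came from their chromosome. Genes of chromosome X (1080 of the genes with a known position) gave 1.70% to 1.89% of the UMIs of SG, 1.95% to 2.38% in pL, 2.08% to 2.35% in L, 0.595% to 0.790% in Z, 0.0844% to 0.120% in P SC and 1.22% to 1.39% in RS. Pgk1 was higher in pL than in SG, as the X share was. From pL to L the range of Pgk1 fell without overlap, whereas that of the X share overlapped, and both were lower in Z. Pdha1 was lower in pL, at 5.73 to 9.52 CPM, than in SG. In RS the X share stood above its P SC and Z ranges, whereas Pgk1 was at 3.48 to 9.53 CPM and Pdha1 at 0.139 to 1.65 CPM in RS, each under its SG range. In P SC the 4 mice held Pdha1 at 0.248 to 0.510 CPM beside Pdha2 at 232 to 287 CPM, and Pgk1 at 4.12 to 5.00 CPM beside Pgk2 at 94.2 to 133 CPM.

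**Figure D4:**
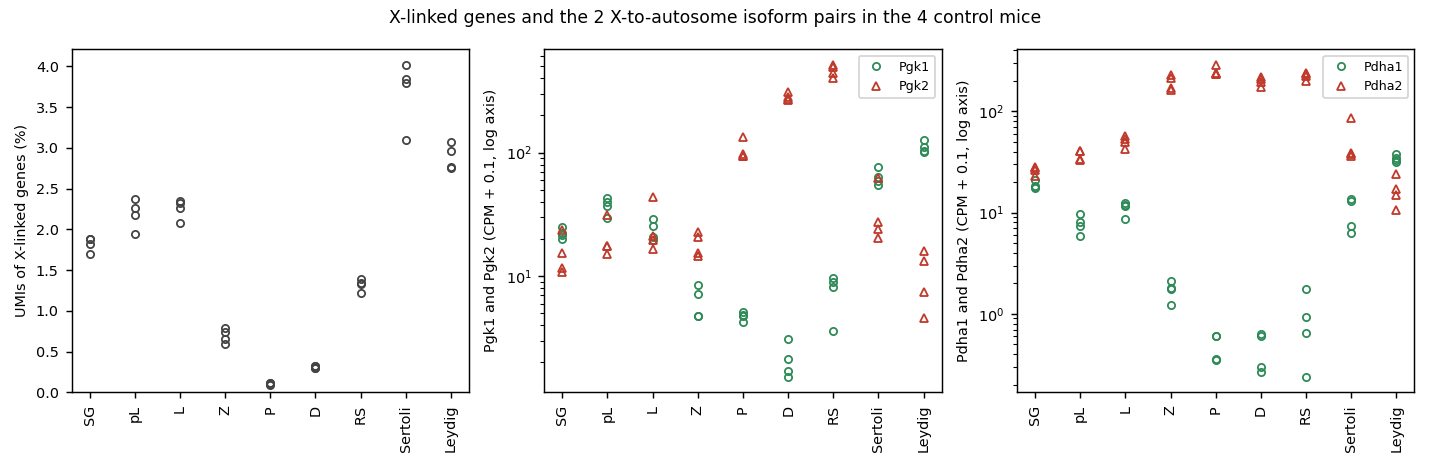
Control mice by cell type, 1 point per mouse. Left, percent of UMIs from X-linked genes, lowest in P at 0.0844% to 0.120%; middle and right, Pgk1 with Pgk2 and Pdha1 with Pdha2 as CPM + 0.1 on a log axis, where the X-linked gene is the lower of each pair from Z to RS.

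The other genes of the pathway list, 50 rows tested with 2 of them for Aldoa, moved in both directions at each step. From SG to early SC 8 were called higher and 12 lower, beside 8.58% and 20.8% of all genes tested, with a median log2 fold change of -0.01 beside -0.15 over all genes. The largest rise was that of 1 of the 2 rows named Aldoa, the aldolase of most tissues, at 2.88 ± 0.60 on the log2 scale (adjusted p = 0.00012, edgeR). The other Aldoa row was not among the 3 largest called rises or falls, so that this value does not stand for the gene as a whole. Mpc1, a subunit of the mitochondrial pyruvate carrier, rose by 1.87 ± 0.13 (adjusted p = 5.33e-15, edgeR), and Bsg, the chaperone of the lactate transporters, by 1.203 ± 0.101 (adjusted p = 9.58e-13, edgeR). Aldoc, an aldolase, fell by 4.07 ± 0.29 (adjusted p = 3.17e-14, edgeR), Hk2, the inducible hexokinase, by 2.71 ± 0.26 (adjusted p = 1.8e-11, edgeR) and Pdk1, a kinase that shuts off pyruvate dehydrogenase, by 2.38 ± 0.26 (adjusted p = 8.29e-10, edgeR). From early SC to P SC 17 were called higher and 13 lower, beside 20% and 24.5% of all genes tested. Of the 9 tested genes of lower glycolysis 6 were called higher and 1 lower at this step, a count with no test of its own. Pgam2, a phosphoglycerate mutase, rose by 3.76 ± 0.24 (adjusted p = 1.94e-16, edgeR). Ldhal6b, a testis relative of Ldha, rose by 3.33 ± 0.26 (adjusted p = 4.16e-14, edgeR), and Pfkp, the platelet-type phosphofructokinase, by 3.24 ± 0.19 (adjusted p = 1.35e-17, edgeR). Pdk3, a relative of Pdk1 on the X chromosome, fell by 3.64 ± 0.16 (adjusted p = 2.7e-21, edgeR), Pdk1 by 2.71 ± 0.30 (adjusted p = 2.55e-10, edgeR), and Slc2a1, a glucose transporter of most tissues, fell by 3.16 ± 0.28 (adjusted p = 1.47e-12, edgeR). From P SC to RS 17 were called higher and 5 lower, beside 30.5% and 22.1% of all genes tested, with a median log2 fold change of 0.54 beside 0.13 over all genes. The leading 2 were Aldoart1 (6.94 ± 0.31, adjusted p = 7.21e-22, edgeR) and Aldoart2 (6.81 ± 0.24, adjusted p = 1.18e-24, edgeR), both retrocopies of an aldolase, which came on at the same step as Gapdhs. Pfkfb3, which makes an activator of phosphofructokinase, rose by 5.05 ± 0.28 (adjusted p = 5.6e-19, edgeR). Pfkfb4, its relative, fell by 2.26 ± 0.21 (adjusted p = 2.9e-12, edgeR), Pdp2, a phosphatase that reactivates pyruvate dehydrogenase, by 1.89 ± 0.36 (adjusted p = 1.26e-05, edgeR), and Slc2a3, the glucose transporter of germ cells and neurons, by 3.16 ± 0.19 (adjusted p = 4.65e-18, edgeR).

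In Sertoli cells, 17 of the other pathway rows were called higher than in SG and 2 lower, beside 16% and 20.5% of all genes tested. With the deeper Sertoli cluster alone 13 were higher and 5 lower, beside 13.6% and 22% of all genes tested. Slc16a3, a lactate exporter of glycolytic cells, was higher by 3.91 ± 0.31 on the log2 scale (adjusted p = 6.64e-14, edgeR), and so were Pfkl, the liver-type phosphofructokinase, by 4.94 ± 0.28 (adjusted p = 6.2e-18, edgeR) and Pfkfb3 by 3.93 ± 0.27 (adjusted p = 1.32e-15, edgeR). Of the 7 tested genes of lactate use and transport 4 were called higher and none lower, again with no test of the group. Aldoc (-4.28 ± 0.38, adjusted p = 2.18e-12, edgeR) and Gpi1 (-2.21 ± 0.22, adjusted p = 2.96e-11, edgeR) were lower. Against P SC, 20 rows were higher and 15 lower in Sertoli cells, beside 27.6% and 23.7% of all genes tested. Hk2 (7.06 ± 0.28, adjusted p = 1.25e-23, edgeR), Pfkl (6.53 ± 0.29, adjusted p = 1.31e-21, edgeR) and Pfkfb3 (5.75 ± 0.29, adjusted p = 3.08e-20, edgeR) led, and the lowest were Slc2a3 (-3.16 ± 0.19, adjusted p = 8.39e-18, edgeR), the lactate importer Slc16a7 (-3.16 ± 0.21, adjusted p = 4.35e-16, edgeR) and Ldhal6b (-3.05 ± 0.26, adjusted p = 3.45e-13, edgeR). With the deeper clusters alone, and again with free RNA subtracted, the lowest 3 were Ldhal6b, Pgam2 and Slc16a7, without Slc2a3.

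Likeness of pattern was described by Pearson's r of log2(CPM + 1) over 14 cell types, with means of the control mice, among 10543 genes. The cell types share libraries and free RNA, so that r is a description only. The genes most like Pgk2 were Dbil5 (r = 0.995), Gm5142 (r = 0.993) and 1700003H04Rik (r = 0.993). Those most like Ldhc were 4922502D21Rik (r = 0.999), Ldhal6b (r = 0.997) and Spata4 (r = 0.997). Gapdhs was nearest to Tmem247 (r = 0.993), Hils1 (r = 0.991), a linker histone-like gene of spermatids, and Tex43 (r = 0.989). Pdha2 was nearest to Lca5l (r = 0.981), Cox6b2 (r = 0.977), a testis subunit of cytochrome c oxidase, and Ube2u (r = 0.976). The genes nearest to Pgk2 and Gapdhs had their highest mean in RS, those nearest to Ldhc in D SC or P SC, and those nearest to Pdha2 in P SC.

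In the NELF-B cKO mice none of the 10 listed genes was called by edgeR in any cell type tested. In SG and early SC together, 1 of 19888 genes was called (0.00503%), the targeted Nelfb, whose level the removal of cells itself sets. It was likewise the only gene called in SG (0.00548%), early SC (0.00634%) and P SC (0.00585%). With no germ cell left out, 1 gene, lower and not a listed one, was still called in each of these germ cell sums. This was 0.00498% of the genes tested in SG and early SC together, 0.00536% in SG, 0.00598% in early SC and 0.00577% in P SC. No gene was called in Sertoli or Leydig cells (0% in each). At an unadjusted p under 0.05, 3 of the listed genes were reached in SG and early SC together (20.3% of all genes tested), 1 in SG (12.6%), 3 in early SC (23.3%) and 1 each in P SC (7.69%), Sertoli cells (9.01%) and Leydig cells (9.16%), which is near the share of all genes. DESeq2 called 1 listed gene, Pdha2, in SG and early SC together, beside 1.14% of all genes, and 0 in SG (0.192%), early SC (1.39%), P SC (0.316%), Sertoli cells (0.138%) and Leydig cells (0.0739%). Pdha2 in early SC was at 54.0 and 73.6 CPM in the 2 NELF-B cKO mice, under the control values of 117, 118, 89.8 and 139.5 CPM. Z cells, which hold the most Pdha2 of the early SC, made up 13% and 25.1% of the early SC in these 2 mice and 23.8% to 46% in the controls, and the part of this mix in the sums was not tested. Within L, Pdha2 was at 33.1 and 27.1 CPM against 42.6 to 57.2 CPM in the controls, and within pL at 37.0 and 16.6 CPM against 33.0 to 40.8 CPM. The free RNA held Pdha2 at 182 and 43.5 CPM in the same 2 mice, against 172 to 198 CPM in the controls. Its part in these values was not tested. For Pdha2 edgeR gave -1.09 ± 0.29 on the log2 scale in SG and early SC together (adjusted p = 0.0891). In Z, where Pdha2 comes on, the 2 mice had 143 and 188 CPM, 1 of them below the 162 to 227 CPM of the controls and 1 within. In P SC Ldhc was at 5861 and 4996 CPM, below all 4 controls (-0.35 ± 0.15 on the log2 scale, adjusted p = 0.596, edgeR), and Pdha2 was at 228 and 254 CPM against 232 to 287 CPM. Pgk2 in P SC was at 122 and 50.3 CPM, 1 within the control range and 1 below it. With 2 mice in the group, these results do not show that the levels were alike.

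The 2 NELF-B cKO mice differed from each other in the testis isoforms of SG. Ldhc was at 497 and 51.2 CPM and Pgk2 at 13.2 and 1.13 CPM in their SG, and the free RNA held Ldhc at 5656 and 1153 CPM in the same order. Replicate 2 had 78 P SC and 10 RS before removal, and replicate 1 had 437 and 339. Ldhb ran the other way, at 22.2 and 58.9 CPM in SG and at 6.90 and 44.9 CPM in P SC, with 95.8 and 779 CPM in the free RNA.

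In the TDP-43 cKO mice no listed gene was called in SG and early SC together, where 0.935% of the genes were. None was called in SG either, where 1 gene was (0.00548%), the targeted Tardbp, whose level the removal of cells itself sets. With no germ cell left out, 0% of the genes were called in SG. With the removal, 9 and 7 of the listed genes were reached at an unadjusted p under 0.05 (edgeR) in these 2 comparisons, beside 34.6% and 19.5% of all genes. DESeq2 called 5 and 3 listed genes, beside 6.95% and 2.24%. Those DESeq2 called were Gapdhs, Ldha and Pgk2 in both comparisons, with Ldhc and Pdha2 in the first. Ldhc in SG was at 6.91, 118 and 70.0 CPM in the 3 cKO mice against 286 to 842 CPM in the controls, with no overlap, beside 131 to 1744 CPM in the free RNA of the cKO mice against 5566 to 8380 CPM in that of the controls. After subtraction of the free RNA, Ldhc in SG was at 0 in all 4 controls and at no more than 0.376 CPM in the cKO mice. Gapdh in SG was at 819, 795 and 778 CPM, above the 552 to 657 CPM of the controls, by 0.47 ± 0.09 on the log2 scale (adjusted p = 0.12, edgeR) in SG and 0.79 ± 0.11 (adjusted p = 0.0083, edgeR), under the fold limit, in SG and early SC together. In Sertoli and Leydig cells 0 listed genes and 0 genes in all (0% in each) were called by edgeR, with 6 listed genes at an unadjusted p under 0.05 in each, beside 28.7% and 18.3% of all genes. DESeq2 called 5 and 1 listed genes, beside 10.4% and 3.97% of all genes, which were Gapdhs in both and Ldha, Ldhc, Pdha2 and Pgk2 in Sertoli cells. The free RNA of the TDP-43 cKO mice held each of these genes below every control, such as Gapdhs at 2.11 to 16.1 against 56.4 to 191 CPM. Its part in these calls was not tested.

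In early SC of the TDP-43 cKO mice, 4 of the 10 listed genes were called, beside 4.69% of the 15772 genes tested. The 3 somatic forms Gapdh, Pgk1 and Pdha1 were higher and Ldha was lower. Pgk1 was at 43.2, 35.4 and 33.1 CPM in the cKO mice and at 18.6, 15.9, 24.0 and 15.8 CPM in the controls, with no overlap, and its log2 fold change was 1.04 ± 0.19 (adjusted p = 0.00523, edgeR). Pdha1 was at 21.0, 11.3 and 9.44 CPM against 5.11 to 5.86 CPM (1.40 ± 0.29, adjusted p = 0.00961, edgeR). Gapdh was at 506, 307 and 289 CPM against 148 to 224 CPM (1.01 ± 0.21, adjusted p = 0.00954, edgeR). Ldha was at 6.85, 23.3 and 17.8 CPM against 63.0 to 165 CPM (-2.71 ± 0.45, adjusted p = 0.00388, edgeR), and after subtraction of the free RNA it was at 0 in every control and at no more than 0.754 CPM in the cKO mice. With the free RNA subtracted Ldha was not tested and none of the other 3 was called, beside 1.35% of genes. Their log2 fold changes were 0.88 for Pgk1, 0.82 for Gapdh and 1.24 for Pdha1. With no germ cell left out none was called either, beside 0.515% of genes, at 0.70 for Pgk1, 0.64 for Gapdh, 1.06 for Pdha1 and -2.50 for Ldha. With Tardbp-positive cells left out of the control mice too, where 0.0339% of genes were called, none of the 4 was among them, and the values were 0.34, 0.32, 0.65 and -2.89 in the same order. Pgk1 and Ldha, but not Gapdh and Pdha1, were called with clusters at resolution 1.2 and with scaling by library size only. DESeq2 called all 4 and, as lower, Pgk2 (-2.80), Ldhc (-3.08) and Gapdhs (-2.51), beside 9.82% of genes. With no low-count filter edgeR called the same 3 and Pgk1, Ldha and Pdha1, beside 5.28%. With free RNA subtracted Ldhc (6.53 ± 3.89) and Gapdhs (6.39 ± 1.68) had the other sign and were not called. No UMI of either gene was left in the controls, so that only this sign was possible. Without any 1 of the 7 mice the number of listed genes called was between 0 and 2, beside 89 to 467 genes in all. Of the 44 other pathway rows tested in early SC, 2 were called, both lower: Slc2a3 (-2.54 ± 0.50, adjusted p = 0.00761, edgeR) and Tpi1, triosephosphate isomerase (-1.88 ± 0.32, adjusted p = 0.00419, edgeR). With no germ cell left out 0 of 46 were called, and with free RNA subtracted 1 of 35, Slc2a3.

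The early SC sums held the 3 substages in different proportions. Z cells made up 7.41%, 29.8% and 31.4% of the early SC of TDP-43 cKO replicates 1 to 3 and 23.8% to 46% of those of the controls, and pL cells 60.2%, 43.7% and 35.9% against 22.7% to 46.2%. Gapdh, which in controls is higher in pL than in Z, was at 821, 633 and 679 CPM within pL of the cKO mice against 463 to 559 CPM in the controls, at 192, 165 and 161 CPM within L against 78.8 to 101 CPM, and at 144, 57.4 and 75.6 CPM within Z against 41.5 to 54.6 CPM. The cKO and control ranges of Gapdh did not overlap in any of the 3 substages. Pdha1 did not overlap in any of them either, at 9.71 to 18.6 CPM within pL against 5.73 to 9.52 CPM and at 15.8 to 27.5 CPM within L against 8.62 to 12.2 CPM. Pgk1 overlapped within pL (40.6 to 55.3 against 29.4 to 43.1 CPM) and within L (27.3 to 35.3 against 19.6 to 28.6 CPM). Ldha was at 6.51 to 25.02 CPM within pL, L and Z of the cKO mice against 59.6 to 192 CPM in the controls, with no overlap. These sums left out Tardbp-positive cells in the cKO mice only. The free RNA of the cKO mice held Gapdh at 404 to 770 CPM, against 105 to 174 CPM in the controls. It held Pdha1 at 12.8 to 26.4 against 2.76 to 4.955 CPM, and Ldha at 98.3 to 179 against 559 to 634 CPM. The substages were not tested across all genes, and the share of all genes without overlap is not given here. The part of the mix in the calls was not tested, nor that of the removal and the free RNA in these values.

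The share of UMIs from chromosome X moved with these values, and its part in them was not tested. Chromosome X gave 1.32% to 1.65% of the UMIs of early SC in the controls, 2.04% to 2.07% in NELF-B cKO and 2.60% to 2.67% in TDP-43 cKO. Within Z the shares were 0.595% to 0.790%, 1.57% to 1.65% and 2.91% to 2.94% in the same order. Pgk1 in Z was at 4.67 to 8.35 CPM in the controls, 9.23 and 15.8 CPM in NELF-B cKO and 31.5, 32.1 and 25.7 CPM in TDP-43 cKO, so that the 3 groups did not overlap. With no germ cell left out it was at 25.1, 21.5 and 18.3 CPM in the TDP-43 cKO mice, still above every control. The free RNA held Pgk1 at 9.03 to 13.8 CPM in the controls, 15.5 and 44.6 CPM in NELF-B cKO and 34.0 to 61.6 CPM in TDP-43 cKO. Its part in the Z values was not tested. Pdha1 in Z was at 9.01, 5.07 and 4.50 CPM against 1.13 to 2.02 CPM in the controls. Pdha2, in the same Z cells, was at 122, 181 and 170.1 CPM against 162 to 227 CPM. Z cells alone were not among the comparisons tested, and whether the cells named Z stood at the same point of the stage in each group was not tested.

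In P SC of the TDP-43 cKO mice 3 listed genes were called, all lower, beside 9.49% of the genes tested. TDP-43 cKO replicate 1 had no P SC left and did not enter. Ldhc was at 3233 and 3521 CPM in the other two mice against 6354 to 7012 CPM in the controls (-1.61 ± 0.16, adjusted p = 0.000145, edgeR). Ldha was at 387 and 481 CPM against 885 to 955 CPM (-1.68 ± 0.17, adjusted p = 0.000145, edgeR), and Pdha2 at 196 and 140.3 CPM against 232 to 287 CPM (-1.18 ± 0.18, adjusted p = 0.00137, edgeR). Pgk2, at 52.6 and 42.5 CPM against 94.2 to 133 CPM, was not called (-1.76, adjusted p = 0.0484, edgeR). The median over all genes tested was -0.31 on the log2 scale. Of the 45 other pathway rows tested 7 were called lower and 0 higher, among them Pgam2 (-2.09 ± 0.25, adjusted p = 0.000349, edgeR), Eno1, an enolase (-2.07 ± 0.35, adjusted p = 0.00223, edgeR), and Bsg (-1.61 ± 0.14, adjusted p = 9.34e-05, edgeR). These values rest on 41 and 49 cells without a Tardbp UMI, of a median of 2477 UMIs per cell, beside 68520 UMIs in the cells left out, and 93.3% of them came from the P cluster of low depth. Among control P SC, those without a Tardbp UMI came from that cluster in 93.9%. With no cell left out Ldhc was at 6320 and 6599 CPM, Ldha at 847 and 844 CPM and Pdha2 at 249.5 and 258 CPM. The log2 fold changes were then -0.06 for Ldhc, -0.11 for Ldha and 0.04 for Pdha2, and none of the 10 was called, beside 0% of the genes tested. With the same removal applied to the control mice they were 0.16, 0.50 and 0.25. None of the 8 listed genes that could be tested with that removal was called either, and Pgk1 and Pdha1 were not tested. With no cell left out, Ldha in both cKO mice still lay under the lowest control value of 885 CPM. Without TDP-43 cKO replicate 3, Pdha2 was not called (-0.99), and the calls over all genes fell from 1624 to 627. With scaling by library size only, Ldha alone of the 10 was called (-1.08), beside 7.4% of the genes tested, and DESeq2 called Pgk2 too (-1.59), beside 12.4%.

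**Figure D5:**
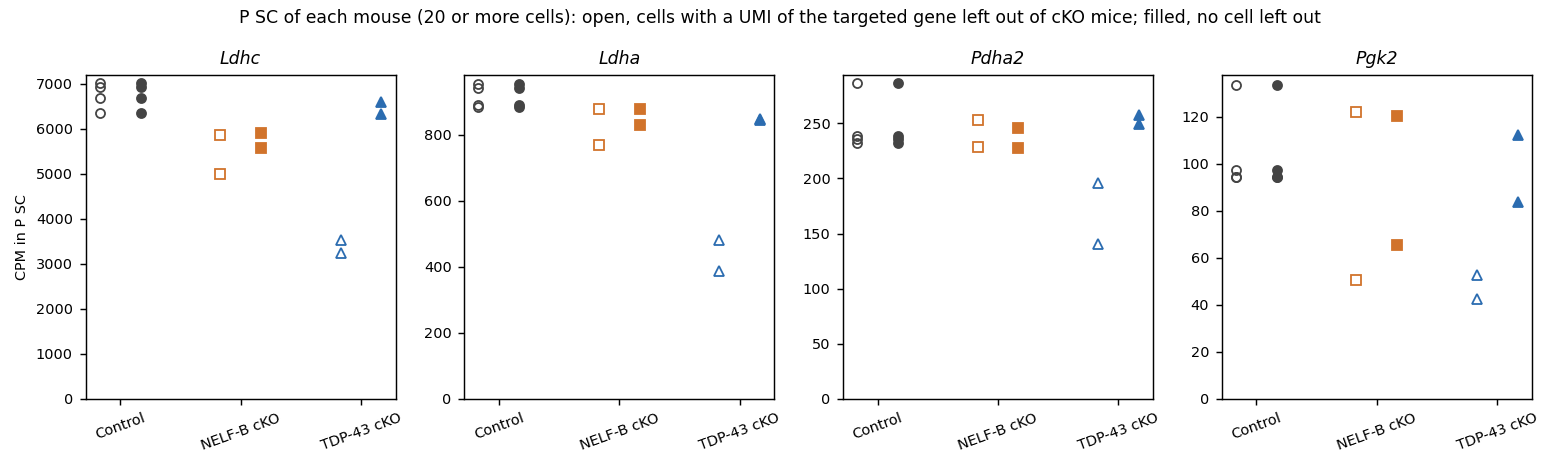
Levels of Ldhc, Ldha, Pdha2 and Pgk2 in P SC, in CPM on axes that start at 0, 1 point per mouse with at least 20 cells. Open symbols are sums without the cKO cells that held a Nelfb or Tardbp UMI, and filled symbols are sums of all cells; Ldhc in the 2 TDP-43 cKO mice is at 3233 and 3521 CPM when open and at 6320 and 6599 CPM when filled, beside 6354 to 7012 CPM in the controls.

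In RS of the 2 TDP-43 cKO mice with enough cells, 23 and 46 after removal, Gapdhs was at 229.8 and 314 CPM, under the control range of 322 to 637 CPM. Of the RS kept in TDP-43 cKO mice 75.7% came from the cluster of low depth, where Gapdhs is the lower in controls. The share was 54.8% of all control RS and 67.3% of control RS without a Tardbp UMI, and the part of this in the values was not tested. Pgk2 was at 470.4 and 426 CPM, within the 401 to 511 CPM of the controls, and Hk1 at 171 and 203 CPM against 196 to 226 CPM. Pgk1 was at 58.8 CPM in replicate 2 and 5.58 CPM in replicate 3, and with no cell left out it was at 15.4 and 6.73 CPM. Genotypes were not compared across all genes in RS.

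The shares of the testis isoforms were compared between cKO and control mice in 26 exact permutation tests (two-sided) of the difference of means. In 12 of them the groups did not overlap, and none passed 0.05: the smallest p that 4 against 3 mice allow is 0.0571 and that of 4 against 2 is 0.133, and the lowest adjusted p was 0.186. Chance alone separates groups of these sizes at the same rates. The tests share mice, and no share over all genes stands beside the 12, so that this count is a description only. In early SC the share of Pgk2 was 7.41% ± 5.55 (SD, n = 3) in TDP-43 cKO against 51.8% ± 7.39 (SD, n = 4) in control mice, and that of Pdha2 was 79.2% ± 16.8 against 95.4% ± 1.09. With free RNA subtracted no Pgk2, Gapdhs or Ldhc was left in control SG and early SC. Differences in their shares (cKO minus control) could therefore not be negative there. In early SC that of Pgk2 went from -44.4 to 0.394 percentage points and that of Gapdhs turned, while that of Pdha2 kept its sign. In SG those of Gapdhs, Ldhc and Pdha2 turned and that of Pgk2 became 0. Pdha2 in control SG was at 13.2% to 15.2% of its free level, beside an estimate of 14.9% to 23.8%. Little or none of it could remain there, so that its difference in SG could hardly be negative either. In RS the share of Gapdhs was 95.0% ± 1.35 in controls (n = 4) and 89.1% ± 1.85 (SD) in TDP-43 cKO mice (n = 2), and with free RNA subtracted this difference turned from -5.89 to 0.722 percentage points. In P SC the share of Ldhc was 87.9% ± 0.522 in controls and 87.9% ± 0.806 in TDP-43 cKO mice (n = 2), a difference of 0.0243 percentage points, while Ldha and Ldhc were both called lower there.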

How the data were processed

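Whole testes of 9 mice were profiled by 10x 3′ single-cell RNA-seq, 1 library per mouse. The authors aligned the reads and counted UMIs with Cell Ranger, and the deposited values are whole UMI counts per gene and barcode for all barcodes. The submitters' processing notes name Cell Ranger 6.1.1 and 7.0.0, Seurat 4.2.0 and DESeq2 1.36. The barcode filter asked for more than 1000 genes and less than 10% mitochondrial UMIs. No doublet caller was run. Cells were clustered with scanpy 1.11.5 (3000 variable genes, 40 principal components, 20 neighbours, Leiden resolution 0.8) without 63 genes. These were 61 genes of glycolysis and pyruvate use and the targeted Nelfb and Tardbp. Of 25 clusters 19 were named from at least 3 raised markers, and limits on naming (a median of at least 2000 UMIs, at most 80% of cells from 1 mouse) were set after the clusters were seen. Most barcodes left unnamed were shallow late germ cells. As in the study, germ cells of cKO mice that held a Nelfb or Tardbp UMI, respectively, were set aside.

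UMIs were summed per mouse and cell type for sums of at least 20 cells. Sums were tested across all genes with edgeR 4.0.16 (R 4.3.3; filterByExpr, TMM, quasi-likelihood test, Benjamini-Hochberg adjustment), with the mouse as a block between cell types and no block between genotypes. The SE beside an edgeR log2 fold change was derived from its test, as the size of the fold change divided by the square root of the F statistic. DESeq2 1.42.0 was an alternative. The steps were tested on simulated data. Differences between mice, not between cells, set the p-values. The share of free RNA in a sum was estimated from genes of cells outside its lineage, against barcodes of 1 to 100 UMIs, and subtracted in an alternative. A sum of free RNA estimated in this way can exceed the true one, so that a level of 0 after subtraction is no proof of absence. The shares of testis isoforms were compared by exact permutation tests. The alternatives also covered scaling, the filter on low counts, the threshold, clustering at resolution 1.2, the removal of cells and each mouse left out in turn. Deep clusters alone were an alternative chosen after seeing the data.

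The members and the wider pathway list were chosen with earlier results of these data known. By rule the text names the 10 listed genes, the 3 other pathway genes with the largest called change in each direction, and the 3 genes most like each testis isoform. Depth was 119203347 to 159407373 UMIs per mouse. Gene positions come from the GENCODE annotation of GRCm38 and promoters from RefSeq (GRCm38.p6).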

Additional observations from a re-analysis of the deposited data

Results flagged for a closer look

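Of 90 sets of 4 control values, 6 held a mouse that stood apart from the other three by Dixon's test, which chance gives in about 1 set in 20 (5%). In P SC, Pgk2 was at 133.5 CPM in Control replicate 2 beside 94.22 to 97.55 CPM in the others, and Hk1 was at 49.88 CPM in the same mouse beside 41.25 to 42.45 CPM. In early SC, Ldhb was at 12.33 CPM in Control replicate 2 beside 21.98 to 23.09 CPM. In P SC, Pdha2 was at 287.1 CPM in Control replicate 4 beside 232 to 238.7 CPM. In Sertoli cells, Ldhc was at 2780 CPM in Control replicate 1 beside 795.8 to 1049 CPM, and Pdha2 was at 86.16 CPM in that mouse beside 36.27 to 38.8 CPM. The free RNA of Control replicate 1 held the most Ldhc and Pdha2 of the 4 control mice, at 8380 and 198 CPM. Its part in the Sertoli values was not tested.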

How the results depend on the processing

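Of 2213 log2 fold changes recomputed for the 10 listed genes, 2071 kept their side of the limits, 54 gained a call, 83 lost one and 5 that were called changed sign. Of the 2071, 73 that were called in neither fit had the other sign, such as Ldhc (6.53), Gapdhs (6.39) and Hk1 (2.56) in TDP-43 cKO early SC with free RNA subtracted. For Ldhc and Gapdhs the controls held no UMI after this subtraction, so that no other sign was possible. Of the called ones that turned, 1 was Ldhc from SG to early SC (-0.065 with free RNA subtracted, with none left at either stage). The others, in P SC of TDP-43 cKO mice, were Ldha (0.499), Ldhc (0.161) and Pdha2 (0.249) when targeted-gene removal was applied to the controls too, and Pdha2 (0.037) with no germ cell left out. With free RNA subtracted, 6 differences in testis share (TDP-43 cKO minus control, in percentage points) turned: Gapdhs in RS 0.722, SG 0.0915 and early SC 0.516, Ldhc in SG 0.813, Pdha2 in SG 29.5, and Pgk2 in early SC 0.394. That of Pgk2 in SG became 0. After subtraction the controls held no Gapdhs, Ldhc or Pgk2 in SG and early SC, so that differences in these shares there could not be negative. Little or no Pdha2 could remain in control SG, so that its difference in SG could hardly be negative either. The causes were not tested. In the counts of listed genes that follow, the percent of all genes tested that were called stands in parentheses, except where mice were left out. Listed genes called from P SC to RS were 3 (52.6%), and 6 by DESeq2 (51.3%), 7 at an adjusted p under 0.05 with no fold limit (71.1%), 5 with deep clusters only (51%), 6 with free RNA subtracted (54.8%), 5 with no low-count filter (44.4%) and 5 with no mouse block (52.1%). In TDP-43 cKO early SC they were 4 (4.69%), and 7 by DESeq2 (9.82%), 7 with no fold limit (23.3%), 2 at resolution 1.2 (4.73%), 2 with library sizes only (4.27%), 6 with no filter (5.28%), and 0 with free RNA subtracted (1.35%), no germ cell left out (0.515%), removal in controls too (0.0339%) or the replicate block (0.00634%). In TDP-43 cKO P SC they were 3 (9.49%), and 1 with library sizes only (7.4%), 0 with no germ cell left out (0%) and 0 with removal in controls too (0%). In SG and early SC together of TDP-43 cKO mice they were 0 (0.935%), and 5 by DESeq2 (6.95%), 8 with no fold limit (16.6%) and 1 with no low-count filter (1.1%). They were 0 in TDP-43 cKO SG, and 3 by DESeq2 (2.24%). They were 0 in Sertoli cells, and 5 by DESeq2 (10.4%), 3 with no fold limit (10.7%) and 2 with no filter (2.34%). They were 0 in Leydig cells, and 1 by DESeq2 (3.97%) and 3 with no filter (2.57%), and 0 in NELF-B cKO SG and early SC together, and 1 by DESeq2 (1.14%). Sertoli cells against SG gave 6 (36.4%), and 2 with deep clusters only (35.6%). Over all genes, TDP-43 cKO SG and early SC together gave 186 calls, and 1383 by DESeq2, 3299 with no fold limit, 62 at resolution 1.2, 51 with free RNA subtracted, 306 with no filter, and 0 with no germ cell left out, with removal in controls too or with the replicate block. NELF-B cKO gave 1 there, and 226 by DESeq2, 4 with no fold limit, 36 with free RNA subtracted and 0 with removal in controls too. With no fold limit, SG to early SC gave 11696 calls in place of 6439, and Sertoli cells against SG 12657 in place of 7997. Without NELF-B cKO replicate 1, Ldhb in P SC was at 1.97 on the log2 scale, NELF-B cKO against control. From P SC to RS, leaving out each control mouse in turn gave 4 to 6 listed genes (6 without Control replicate 2), beside 10629 to 11171 genes in all. In TDP-43 cKO early SC, leaving out each mouse in turn gave 0 to 2 listed genes. Over all genes it gave 1 to 26 in TDP-43 cKO SG and early SC together, 89 to 467 in early SC and 627 to 1624 in P SC. In NELF-B cKO it gave 1 to 28 in SG and early SC together, 1 to 31 in SG, 1 to 5 in early SC, 1 to 73 in P SC, 0 to 1 in Sertoli cells and 0 to 2 in Leydig cells, each highest without 1 NELF-B cKO mouse, and 1 to 2 in TDP-43 cKO SG. Where 1 mouse was left in a group it was assumed to vary like the others. Replicate numbers showed no pairing of Control with TDP-43 cKO mice: in SG and early SC together, same-numbered mice correlated at -0.183 to -0.011 in their deviations. Control and NELF-B cKO mice correlated at 0.352 and 0.366, and 2 pairs are too few to decide. The deposited data also carry codes per mouse, of which Control replicate 2 shares one with TDP-43 cKO replicate 1 and Control replicate 1 one with NELF-B cKO replicate 2. What they mean is not given in the sources used here, and they were not used to pair mice. Few cells limit the TDP-43 cKO P SC and RS, and 2 mice limit NELF-B cKO.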
